A study of Mus musculus with 12 samples.

Results

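The collagen chain genes of the mouse kidney are described here: every gene in the table whose symbol is Col, a type number, the letter a and a chain number. The rule used no measured value and took 44 of 33188 genes. Of these, 11 encode fibrillar collagens, 6 encode the type IV chains of basement membranes and 27 encode other collagens.

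RNA sequencing was done on kidneys of mice with the genotype label WT, in 12 libraries of 4 per group. XZSW was the hyperuricemia model, in which uric acid is raised, treated with Xin-Zi-Sheng-Wan Decoction. HUA was that model alone, induced with potassium oxonate, which blocks the breakdown of uric acid, and with hypoxanthine, from which uric acid is made. CTL was the control group, and what its mice were given in place of these agents is not stated in the labels. Doses, times, age, sex and strain are not given in the sources used here. Nor do the labels state that each library is from a different mouse. The p-values therefore reflect spread among these 12 libraries alone, and part of that spread may be technical.

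Collagens are secreted or membrane proteins whose chains wind around each other in a helix, and this helix needs glycine at a fixed spacing, the Gly-X-Y repeat. Fibrillar collagens pack into the fibrils of the interstitium and of scars, whereas type IV chains join end to end into the sheet that underlies tubules, vessels and glomeruli. In the kidney the chains encoded by Col4a1 and Col4a2 are found in basement membranes throughout, and those of Col4a3, Col4a4 and Col4a5 form the network of the mature glomerular basement membrane, which is defective in Alport syndrome.

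Library totals were 51643999 to 74288100 counts, and 19772 genes had enough counts to be tested. Markers of the proximal tubule, the main epithelium of the kidney cortex, were high in every library: the summed level of 5 such genes was 1173 to 1516 in XZSW, 221 to 779 in HUA and 1065 to 1327 in CTL. A level here is the deposited FPKM, which is per transcript length, divided by the TMM scaling factor of the library, so levels can be set side by side between genes. In 5 libraries (XZSW3, XZSW4, HUA2, HUA3 and HUA4), genes rich in G and C read higher relative to CTL, by 0.227 to 0.367 log2 units per 10% GC. In the other 7 the slope was -0.0605 to 0.05. These 5 are called the GC-high libraries, and values are given within each kind of library where they bear on a result. All CTL libraries are of the other kind, so in comparisons with CTL a fit with a term for library kind separates kind from group only through HUA1, XZSW1 and XZSW2. In these, long transcripts read higher relative to CTL, by 0.244, 0.169 and 0.123 log2 units per doubling of length. That slope was -0.0104 to 0.00749 in CTL and -0.0828 to 0.0597 in the GC-high libraries. The other kind is thus not uniform, and neither the term for kind nor values within a kind take this slope into account.

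Adding the levels of all 44 chains gave 165 ± 25.8 in XZSW, 196 ± 49.1 in HUA and 126 ± 1.89 in CTL (mean ± SD, n = 4 each). Type IV chains made up most of this sum, with 52.1 ± 4.27% in XZSW, 53.9 ± 5.17% in HUA and 61.7 ± 1.47% in CTL. The fibrillar sum was 41.6 ± 14.7 in XZSW, 30.5 ± 4.10 in HUA and 21 ± 3.36 in CTL, and the share of a single chain, Col27a1, in it differed between libraries. That share was 80.5% in XZSW1, 91.6% in XZSW2, 43.1% in XZSW3 and 28% in XZSW4, 7.69% to 34.7% in HUA and 71.5% to 78.7% in CTL. Without Col27a1 the fibrillar sum was 13.6 ± 8.89 in XZSW, 23.4 ± 5.06 in HUA and 5 ± 0.354 in CTL. The other collagens summed to 36.8 ± 4.35 in XZSW, 58.6 ± 17.2 in HUA and 27.2 ± 2.6 in CTL, mostly from Col18a1. Since kidney pieces were measured whole, fewer cells of a type and less RNA per cell cannot be told apart.

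**Figure D1:**
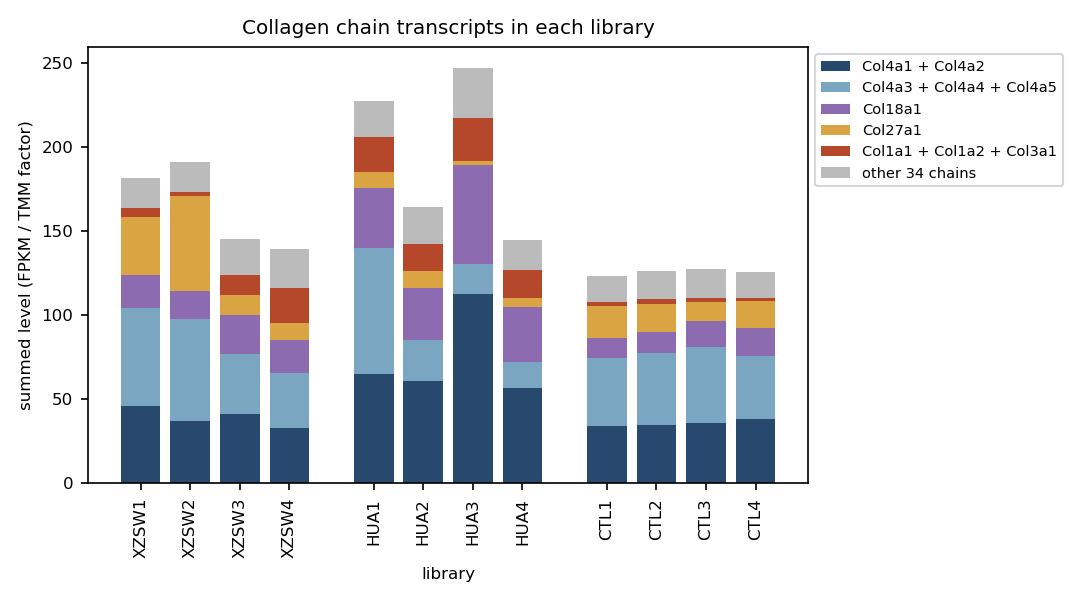
Summed levels (vertical axis, FPKM divided by the TMM factor) of collagen chains in each of the 12 libraries (horizontal axis), stacked by chain or chain group. CTL totals lie between 123 and 128, HUA totals between 145 and 247, and the Col27a1 band is widest in XZSW1 and XZSW2.

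The comparison of HUA with CTL asks how the hyperuricemia model changed the kidney's collagen transcripts. Of 37 collagen genes that could be tested, 12 rose and 2 fell, which is 37.8%, where 27.8% of all tested genes were called, 14.9% upward and 12.8% downward (edgeR quasi-likelihood test, Benjamini-Hochberg adjusted p under 0.05). The median log2 change was 0.38 over the collagens and 0.06 over all tested genes. By class, 4 of 10 tested fibrillar genes rose, 2 of 6 type IV genes rose, and of 21 tested other collagens 6 rose and 2 fell. The comparison of XZSW with HUA asks whether the decoction altered the model's expression. There, 2 collagens rose and 7 fell (1 and 8 with limma on log2(FPKM + 1)), 24.3% of 37, where 15.4% of all tested genes were called, 7.09% upward and 8.34% downward, and the median log2 change was -0.20 over the collagens and 0.01 over all tested genes. The 7 that fell in XZSW against HUA were all among the 12 that rose in HUA against CTL: Col4a1, Col4a2, Col8a1, Col12a1, Col16a1, Col17a1 and Col18a1. These comparisons share the HUA libraries, which favours such an overlap in any set of genes. The overlap over all tested genes is not given here, so this one is not read as a trait of collagens. The 5 that rose in HUA and were not called in XZSW against HUA were Col1a1, Col1a2, Col3a1, Col5a1 and Col15a1.

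**Figure D2:**
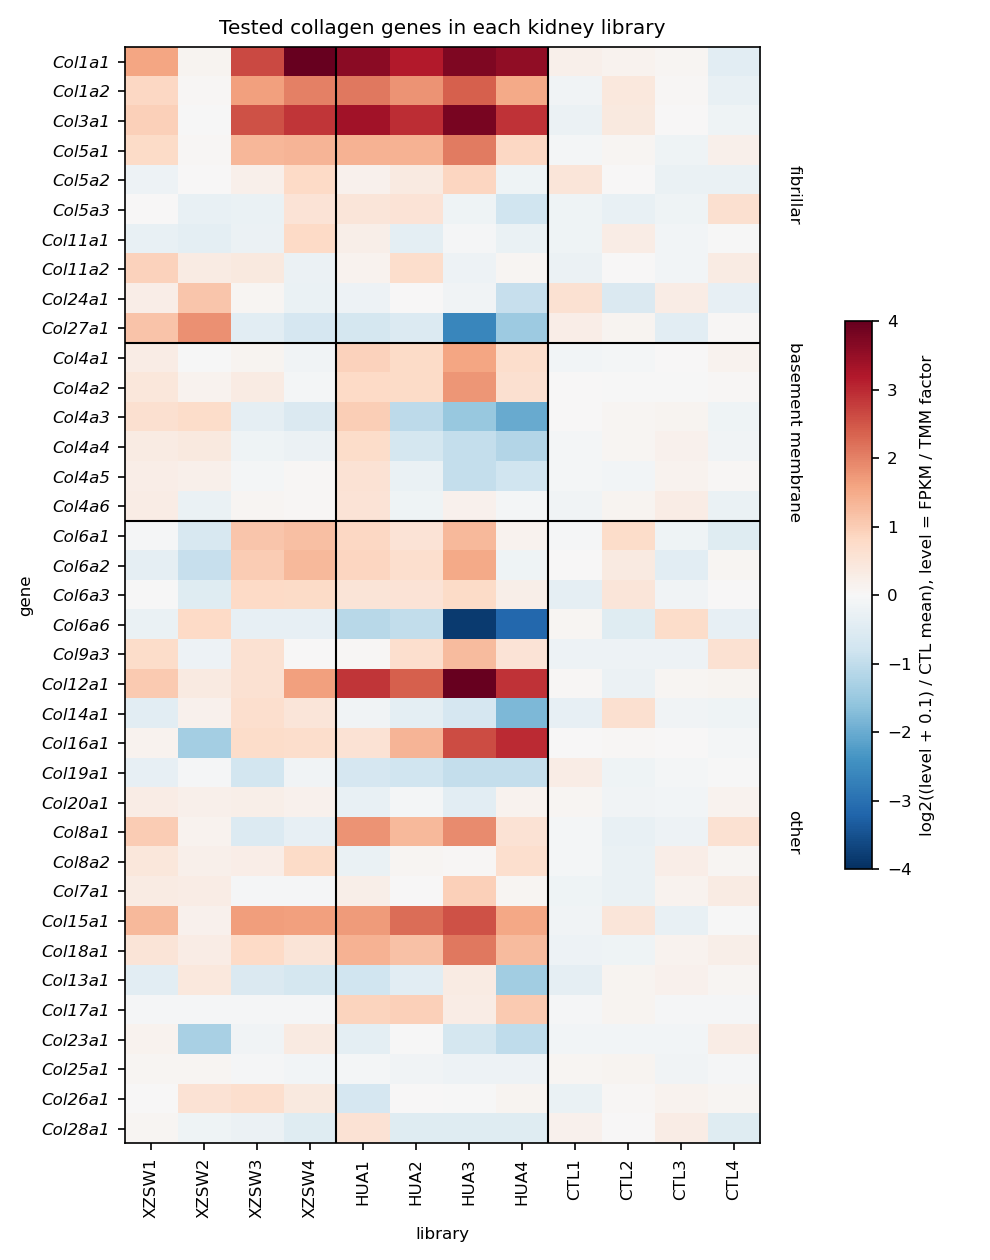
Each row is 1 of the 37 tested collagen genes and each column 1 library. Colour gives log2(level + 0.1) minus the mean of log2(level + 0.1) over the CTL libraries. Red in the top rows (Col1a1, Col1a2, Col3a1, Col5a1) runs through all HUA columns and through XZSW3 and XZSW4, and is faint or missing in XZSW2.

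The genes of type I collagen, Col1a1 and Col1a2, and of type III collagen, Col3a1, which co-assembles with it, were the abundant interstitial fibrillar chains of the model kidneys. Their coding sequences hold the long unbroken repeat that a fibril needs. Across the fibrillar genes the longest run of Gly-X-Y triplets was 216 to 344, with 9 of 11 at 300 or more, computed from GENCODE M21 transcripts on GRCm38. In the type IV genes the longest run was 39 to 66 triplets, and the repeat came in 22 to 27 separate runs of at least 5. The stretches shown here are the first 30 codons of the longest run of Col1a1 (codons 168 to 197) and Col3a1 (codons 164 to 193), and the last stretch of the longest run of Col4a1 with what follows it (codons 139 to 177), chosen to show an unbroken repeat beside an interrupted one. Capitals mark the glycine codons in phase with the repeat.
Col1a1: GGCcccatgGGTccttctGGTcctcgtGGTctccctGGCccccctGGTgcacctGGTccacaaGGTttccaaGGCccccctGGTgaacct
Col3a1: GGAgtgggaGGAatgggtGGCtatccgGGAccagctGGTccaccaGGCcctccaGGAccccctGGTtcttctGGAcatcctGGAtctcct
Col4a1: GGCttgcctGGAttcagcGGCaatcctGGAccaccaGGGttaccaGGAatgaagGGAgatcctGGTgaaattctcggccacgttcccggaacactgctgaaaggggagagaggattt
In the Col4a1 stretch the capitals stop before its end, where the repeat breaks. The genes lie at chr11:94936224-94953042 on the plus strand (Col1a1), chr1:45311538-45349706 on the plus strand (Col3a1) and chr8:11198423-11312826 on the minus strand (Col4a1), in GRCm38.

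Col1a1 stood at 1.96, 0.64, 4.13 and 10.7 in XZSW1 to XZSW4, at 8.19, 6.11, 8.94 and 7.96 in HUA1 to HUA4, and at 0.687, 0.658, 0.62 and 0.41 in CTL1 to CTL4. Every HUA library was above every CTL library, while the XZSW libraries spread over the whole range, XZSW2 lying among CTL and XZSW4 above all HUA libraries. Col1a1 rose in HUA against CTL with a log2 change of 3.69 (SE 0.63, adjusted p = 0.00115, edgeR), 12.9-fold. With a term for library kind the log2 change was 2.88 (adjusted p = 0.00526). In XZSW against HUA its log2 change was -0.89 (SE 0.57, adjusted p = 0.323). Without XZSW4 it was -1.84 and passed (adjusted p = 0.0264).

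Col3a1 read 1.36, 0.653, 4.35 and 5.41 in the XZSW libraries, 7.67, 5.69, 10.3 and 5.52 in HUA, and 0.539, 0.898, 0.659 and 0.57 in CTL. No XZSW value reached the lowest HUA value, although XZSW4 came close to it. The rise in HUA against CTL was 3.42 on the log2 scale (SE 0.54, adjusted p = 0.000725), 10.7-fold, and was 2.67 with a term for library kind (adjusted p = 0.00328). The log2 change in XZSW against HUA was -1.36 (SE 0.50) and missed the threshold with edgeR (adjusted p = 0.0848). It passed with DESeq2 (adjusted p = 0.0216), with limma on FPKM, with a term for library kind (adjusted p = 0.033) and without XZSW4 (adjusted p = 0.0398).

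Col1a2, the second chain of type I collagen, had 2.03, 1.12, 3.57 and 4.70 in XZSW, 4.98, 4.01, 6.11 and 3.27 in HUA and 0.97, 1.47, 1.12 and 0.863 in CTL. It rose in HUA against CTL by 2.03 on the log2 scale (SE 0.37, adjusted p = 0.00161), with no overlap, and was not called in XZSW against HUA (log2 change -0.73, SE 0.36, adjusted p = 0.186). Col5a1, a chain of type V collagen, which starts fibril assembly, had 0.628, 0.34, 0.987 and 1.01 in XZSW, 1.04, 1.04, 1.73 and 0.666 in HUA and 0.305, 0.351, 0.278 and 0.396 in CTL. It rose by 1.72 in HUA against CTL (SE 0.35, adjusted p = 0.00311) and its log2 change in XZSW against HUA was -0.64 (SE 0.34, adjusted p = 0.232).

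These chains did not keep 1 proportion to each other. The ratio of the Col1a1 to the Col1a2 level was 1.24 ± 0.729 in XZSW, 1.77 ± 0.45 in HUA and 0.546 ± 0.117 in CTL (mean ± SD, n = 4 each). The lowest HUA ratio, 1.46, was above the highest CTL ratio, 0.708. The ratio of Col3a1 to Col1a2 was 0.907 ± 0.324 in XZSW, 1.58 ± 0.133 in HUA and 0.604 ± 0.0442 in CTL. The GC content of the transcripts is 58.9% for Col1a1, 55.7% for Col1a2 and 52.5% for Col3a1, and HUA1, which is not a GC-high library, had ratios of 1.64 and 1.54. In XZSW the ratio of Col1a1 to Col1a2 was 0.967 and 0.574 in XZSW1 and XZSW2, and 1.16 and 2.27 in the GC-high XZSW3 and XZSW4. These ratios are given as a description, with no test, and the part of library kind in them was not tested.

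Within XZSW, levels of type I and III collagen moved with the kind of library. Col1a1 averaged 7.41 in the 2 GC-high XZSW libraries and 7.67 in the 3 GC-high HUA libraries. Among libraries of the other kind it averaged 1.30 in XZSW1 and XZSW2, stood at 8.19 in HUA1 and averaged 0.594 in CTL. The mean log2 difference of XZSW from HUA, on log2(level + 0.1), was thus -0.18 within the GC-high kind and -2.75 within the other. For Col3a1 the same differences were -0.50 and -2.89, and for Col1a2 they were -0.07 and -1.66. With 1 HUA library of the other kind, the gap between these pairs of differences was not tested.

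**Figure D3:**
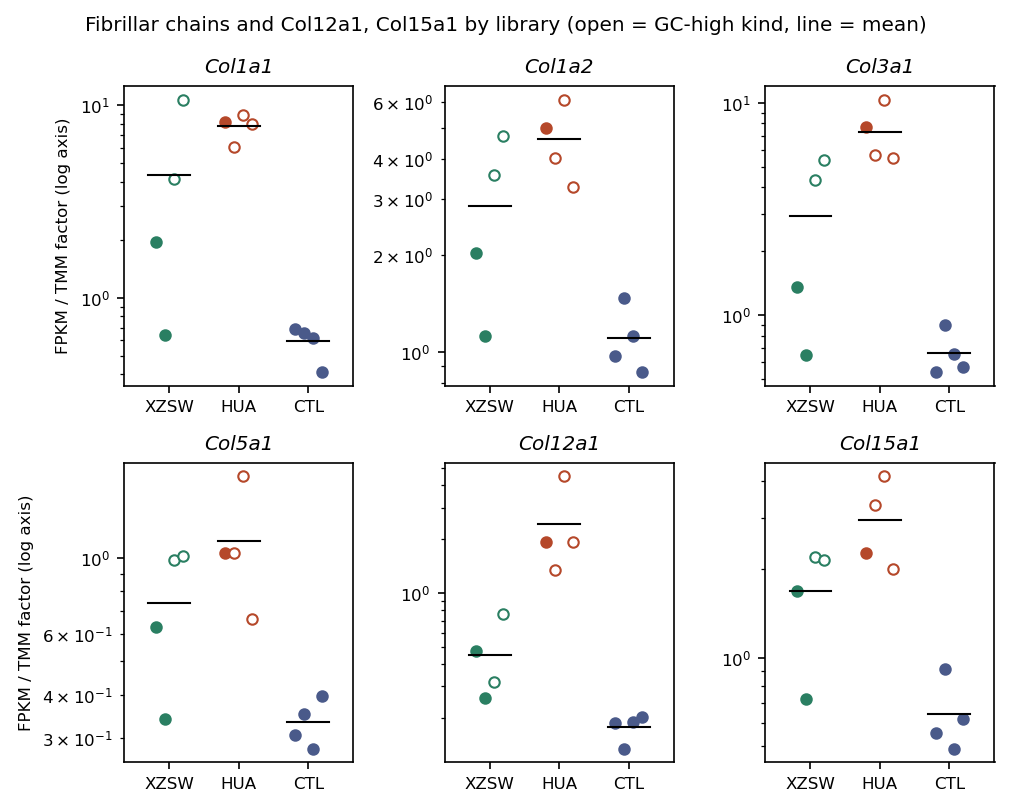
Levels (log axes) of 4 fibrillar chains, Col12a1 and Col15a1 in each library by group, open circles for GC-high libraries and lines for group means. For Col1a1 the XZSW libraries lie between 0.64 and 10.7, with the open circles above the filled ones, while HUA lies between 6.11 and 8.94 and CTL between 0.41 and 0.687.

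Col27a1, a fibrillar collagen known mainly from cartilage, differed from these chains and was the most abundant fibrillar transcript of the control kidneys. It read 34.7, 56.2, 11.7 and 9.81 in XZSW, 9.54, 10.6, 2.51 and 5.72 in HUA and 19, 16.9, 11.7 and 16.3 in CTL. All HUA values were below all CTL values, and in XZSW the high values were those of XZSW1 and XZSW2. It rose in XZSW against HUA, by 1.94 on the log2 scale (SE 0.54, adjusted p = 0.0283), and was not called in HUA against CTL (log2 change -1.2, SE 0.53, adjusted p = 0.11). The call did not pass without HUA3 (adjusted p = 0.0722), HUA4 (0.0698), XZSW1 (0.0596) or XZSW2 (0.0967), nor with a term for library kind (log2 change 1.22, adjusted p = 0.0777). With that term the log2 change in HUA against CTL was -0.05. Within the GC-high libraries Col27a1 averaged 10.7 in XZSW and 6.28 in HUA, and within the other kind 45.4 in XZSW, 9.54 in HUA and 16 in CTL.

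The remaining tested fibrillar genes were Col5a2 and Col5a3 of type V, Col11a1 and Col11a2 of type XI, and Col24a1. None was called in a comparison, with an adjusted p of at least 0.103 over these and the other tested genes not described singly. Col5a2 and Col5a3 averaged 0.762 to 1.24 in XZSW, 0.805 to 1.34 in HUA and 0.769 to 1.05 in CTL. Col11a1, Col11a2 and Col24a1 stayed at 0.621 or below in every library. Col2a1, the chain of cartilage collagen II, had 4 counts in 1 CTL library and 0 in the rest, and was not tested.

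Among the type IV chains the genes of the general basement membrane network rose and fell as a pair. Col4a1 read 24.8, 19.8, 21.9 and 18.2 in XZSW, 38.2, 34.4, 59.5 and 32.4 in HUA and 18.7, 19.1, 20.4 and 22.3 in CTL. Col4a2 read 21.3, 17.1, 19.7 and 14.8 in XZSW, 27.1, 26.7, 53 and 24.3 in HUA and 15.5, 15.3, 15.2 and 16 in CTL. For both genes each HUA library was above all 8 others, and XZSW and CTL overlapped.

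In HUA against CTL, Col4a1 rose by 1.01 (SE 0.19, adjusted p = 0.00168) and Col4a2 by 1.05 on the log2 scale (SE 0.22, adjusted p = 0.00387). In XZSW against HUA, Col4a1 fell by 1.01 (SE 0.19, adjusted p = 0.00426) and Col4a2 fell by 0.90 (SE 0.22, adjusted p = 0.0178). The Col4a2 call was lost without XZSW2 (adjusted p = 0.0518) or XZSW4 (0.0517). In XZSW against CTL neither was called, with log2 changes of 0 (SE 0.18) and 0.16 (SE 0.22). XZSW was below HUA within each kind of library: the mean log2 difference of XZSW from HUA was -1.02 for Col4a1 and -0.92 for Col4a2 in the GC-high libraries, and -0.78 and -0.50 in the others.

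The ratio of Col4a1 to Col4a2 stayed between 1.11 and 1.41 in all 12 libraries. These genes lie head to head on chromosome 8, and their annotated ends overlap by 22 bases. Their promoter windows, 250 bases before the start to 50 after it, are shown because the pair moved together. They were taken from RefSeq (GRCm38.p6), which held windows for 35 of the 44 genes, 38 in all, and they share 78 bases. Capitals mark 3 motifs on either strand: CCAAT, which reads ATTGG on the opposite strand, CCCTCCCC, which reads GGGGAGGG there, and GGGCGG, which reads CCGCCC there. The Col4a1 window is chr8:11312777-11313076 on the minus strand and the Col4a2 window is chr8:11312555-11312854 on the plus strand.
Col4a1 window: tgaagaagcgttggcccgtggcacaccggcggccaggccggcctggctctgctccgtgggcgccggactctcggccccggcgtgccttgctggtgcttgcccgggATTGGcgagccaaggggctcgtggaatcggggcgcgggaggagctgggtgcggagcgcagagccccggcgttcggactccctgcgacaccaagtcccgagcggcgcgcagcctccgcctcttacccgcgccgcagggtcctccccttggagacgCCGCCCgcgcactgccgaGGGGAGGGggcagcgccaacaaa
Col4a2 window: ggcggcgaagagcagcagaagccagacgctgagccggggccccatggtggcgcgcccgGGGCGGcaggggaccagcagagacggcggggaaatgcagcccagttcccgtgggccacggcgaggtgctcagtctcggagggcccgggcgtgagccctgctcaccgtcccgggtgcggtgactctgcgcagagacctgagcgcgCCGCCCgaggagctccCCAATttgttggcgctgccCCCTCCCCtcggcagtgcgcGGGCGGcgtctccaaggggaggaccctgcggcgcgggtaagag
Both windows hold all 3 motifs. The CCCTCCCC and GGGCGG matches of the Col4a1 window lie in the shared bases. They are the same sites, read on the opposite strand, as matches of the Col4a2 window, so they are not separate matches. The counts of genes given next include each such site for both genes. Of 32851 windows in the RefSeq table, 37.4% hold CCAAT, 10.8% CCCTCCCC and 35.7% GGGCGG, and of the 35 collagen genes with a window 13, 10 and 22 do. A motif match is a description of the letters and not evidence of a bound factor. Since the counting strand is not given in the sources used here, reads over the shared bases could fall to either gene.

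The glomerular network genes did not follow that pair. Col4a3 read 30.5, 32.3, 15.2 and 13 in XZSW, 38.4, 9.45, 6.76 and 4.80 in HUA, and 19.8, 20.4, 20.9 and 17.2 in CTL. Col4a4 read 22.3, 23.4, 15.6 and 15.2 in XZSW, 29.3, 10.9, 9.05 and 7.88 in HUA, and 16.6, 18.7, 19.9 and 15.9 in CTL. In both, HUA1 was above every CTL library and HUA2, HUA3 and HUA4 were below every one. Neither gene was called: in HUA against CTL the log2 change was -0.43 for Col4a3 (SE 0.53, adjusted p = 0.592) and -0.34 for Col4a4 (SE 0.34, adjusted p = 0.497).

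One library decided these values. Without HUA1 the log2 change was -1.46 for Col4a3 (adjusted p = 0.00494) and -0.91 for Col4a4 (adjusted p = 0.00276), and both passed. With a term for library kind it was 0.44 and 0.27 (adjusted p = 0.299 and 0.428). HUA1 is the HUA library that is not GC-high, and in XZSW, too, the GC-high libraries had the lower values of both genes. The transcripts hold 50.4% GC in Col4a3 and 51.1% in Col4a4, beside 57.7% in Col4a1 and 60.6% in Col4a2. HUA1 was also the library in which long transcripts read highest, by 0.244 log2 units per doubling of length. Next were XZSW1 (0.169) and XZSW2 (0.123), the XZSW libraries with the higher values of both genes. Col4a3 and Col4a4 are the longest of the type IV transcripts, at 8554 and 10108 bases. The part of either trend in these values was not tested.

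Col4a5, which was singled out after its values were seen because it is the partner of these chains, had 4.34 to 5.51 in XZSW, 2.30 to 6.80 in HUA and 4.22 to 4.97 in CTL, again highest in HUA1. The podocyte makes this network, and the summed level of 6 podocyte genes was 55.3 to 78.4 in XZSW, 25.9 to 63.4 in HUA and 33.4 to 48.1 in CTL. Of the 6, 3 rose and 1 fell in HUA against CTL, where 14.9% of all tested genes were called upward and 12.8% downward. The ratio of Col4a3 to Col4a1 was 1.07 ± 0.448 in XZSW, 0.385 ± 0.418 in HUA and 0.98 ± 0.141 in CTL, and was 1 in HUA1 and 0.113 to 0.275 in the other HUA libraries. Col4a6, which lies head to head with Col4a5 on the X chromosome with 1308 bases between them, was near the detection limit, with 57 counts in XZSW, 92 in HUA and 39 in CTL.

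Col4a4 and Col4a3 also lie head to head, on chromosome 1, with 71 bases between their annotated starts. RefSeq held a window for Col4a4 (chr1:82586800-82587099, minus strand), shown to set beside the pair on chromosome 8, and 61% to 74% of the letters in the windows printed here are G or C.
Col4a4 window: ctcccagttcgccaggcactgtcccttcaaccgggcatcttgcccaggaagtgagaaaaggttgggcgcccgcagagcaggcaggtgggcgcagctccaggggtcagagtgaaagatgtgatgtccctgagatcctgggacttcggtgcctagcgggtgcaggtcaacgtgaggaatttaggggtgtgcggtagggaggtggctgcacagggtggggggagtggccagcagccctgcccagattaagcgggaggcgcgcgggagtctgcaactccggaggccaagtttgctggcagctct
None of the 3 motifs occurs in it, which says only that these letters are not in this window. The window of Col1a2 (chr6:4505368-4505667, plus strand), the chain of type I collagen that RefSeq covers here, holds all 3 and is shown for comparison.
Col1a2 window: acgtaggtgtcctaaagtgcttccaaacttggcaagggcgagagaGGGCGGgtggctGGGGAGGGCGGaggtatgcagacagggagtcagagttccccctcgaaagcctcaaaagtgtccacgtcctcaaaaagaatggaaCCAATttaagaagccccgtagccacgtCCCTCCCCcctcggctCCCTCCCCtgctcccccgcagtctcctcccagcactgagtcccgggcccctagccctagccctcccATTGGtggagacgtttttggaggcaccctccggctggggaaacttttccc
Capitals mark the same motifs, and a CCCTCCCC match on the minus strand overlaps a GGGCGG match.

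**Figure D4:**
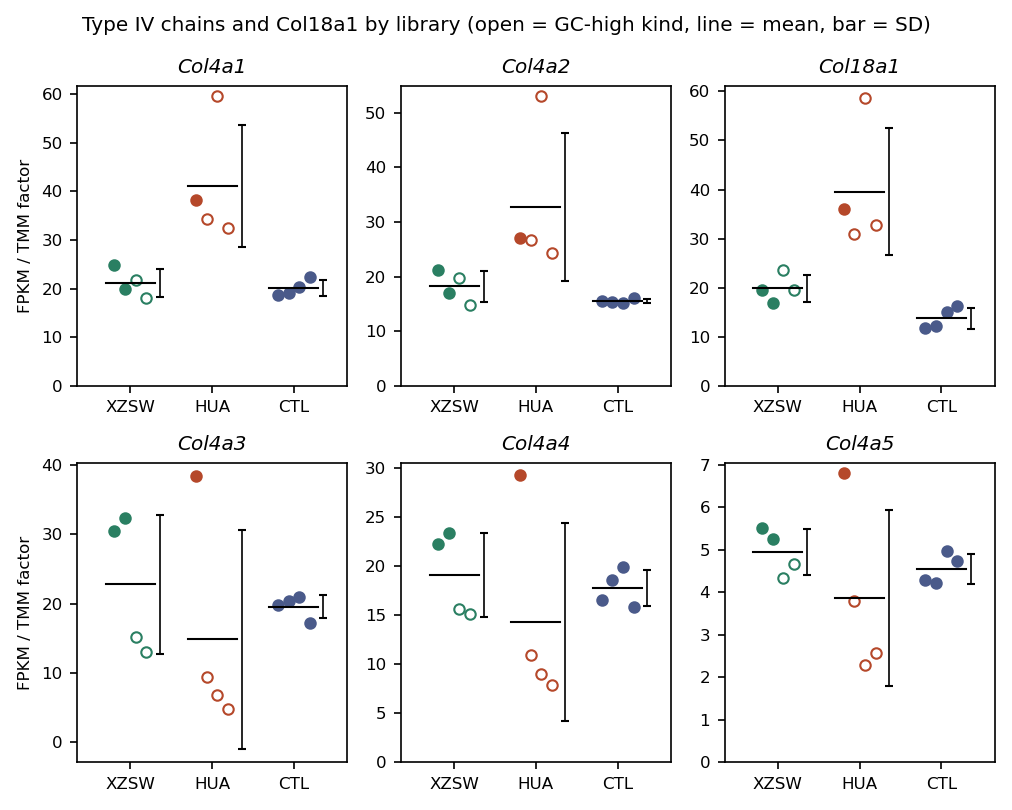
Levels (linear axes) of 5 type IV chains and Col18a1 in each library by group, open circles for GC-high libraries, lines for means and bars for SD. In Col4a1, Col4a2 and Col18a1 all HUA libraries are above the others, while in Col4a3, Col4a4 and Col4a5 a single HUA library, HUA1, is the highest and the other HUA libraries are low.

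Of the collagens that are neither fibrillar nor type IV, 6 rose in HUA against CTL: Col12a1 and Col16a1, which bind to fibrils, Col15a1 and Col18a1 of the basement membrane zone, Col8a1 and Col17a1. Col12a1, a fibril-associated collagen that decorates the surface of fibrils, read 0.471, 0.257, 0.318 and 0.757 in XZSW, 1.92, 1.35, 4.51 and 1.93 in HUA and 0.187, 0.134, 0.19 and 0.201 in CTL. The groups were ordered without overlap: every HUA library above every XZSW library, and every XZSW library above every CTL library. Col12a1 rose 13.4-fold in HUA against CTL (log2 change 3.74, SE 0.42, adjusted p = 8.21e-05) and fell 5.57-fold in XZSW against HUA (log2 change -2.48, SE 0.39, adjusted p = 0.0019). It was not called in XZSW against CTL (log2 change 1.27, adjusted p = 0.0727), although it passed without HUA3 (adjusted p = 0.0315). Within the GC-high libraries it averaged 0.538 in XZSW and 2.6 in HUA, and in the others 0.364 in XZSW, 1.92 in HUA and 0.178 in CTL.

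Col16a1, of the same family, read 0.491, 0.107, 0.781 and 0.772 in XZSW, 0.693, 1.28, 3.13 and 4.13 in HUA and 0.441, 0.453, 0.441 and 0.408 in CTL. Its HUA values were all above CTL, with HUA3 and HUA4 far above HUA1. It rose by 2.38 on the log2 scale in HUA against CTL (SE 0.58, adjusted p = 0.0088) and fell by 2.15 in XZSW against HUA (SE 0.58, adjusted p = 0.0253). With a term for library kind the rise was 0.93 and did not pass (adjusted p = 0.237), and the fall did not pass without HUA3 (adjusted p = 0.0708), HUA4 (0.0746) or XZSW1 (0.0593). Its transcript holds 61.4% GC.

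Col18a1, whose end fragment is endostatin and which sits in vascular and epithelial basement membranes, was the most abundant collagen outside type IV in HUA. It read 19.6, 16.8, 23.6 and 19.6 in XZSW, 36.1, 30.9, 58.7 and 32.7 in HUA and 11.7, 12.2, 15 and 16.2 in CTL. HUA lay above XZSW and XZSW above CTL, with no overlap. The rise in HUA against CTL was 1.5 on the log2 scale (SE 0.21, adjusted p = 0.000297), and it fell by 1.04 in XZSW against HUA (SE 0.20, adjusted p = 0.00593). In XZSW against CTL the log2 change was 0.46 (SE 0.20, adjusted p = 0.191).

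Col15a1, the other collagen of that family, had 1.69, 0.725, 2.2 and 2.15 in XZSW, 2.28, 3.33, 4.16 and 2 in HUA and 0.555, 0.912, 0.489 and 0.617 in CTL. It rose by 2.16 in HUA against CTL (SE 0.35, adjusted p = 0.00085), and its log2 change in XZSW against HUA was -0.85 (SE 0.34, adjusted p = 0.111). Col8a1, a network-forming collagen of vessel walls, had 1.37, 0.699, 0.393 and 0.475 in XZSW, 2.38, 1.68, 2.58 and 0.966 in HUA and 0.578, 0.482, 0.527 and 0.992 in CTL. The lowest HUA library overlapped both other groups. Col8a1 rose by 1.53 in HUA against CTL (SE 0.41, adjusted p = 0.0132), or by 2.21 with a term for library kind, and fell by 1.42 in XZSW against HUA (SE 0.40, adjusted p = 0.0318). That fall did not pass without HUA1 (adjusted p = 0.0539), HUA3 (0.0921), XZSW2 (0.0772), XZSW3 (0.0805) or XZSW4 (0.0832).

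Col17a1, a membrane collagen of the hemidesmosome, the junction that fixes skin epithelium to its basement membrane, was detected almost wholly in HUA. It had 48, 46, 15 and 52 counts in HUA1 to HUA4, 0 counts in all XZSW libraries, and 4 counts in CTL, all of them in CTL2. It rose in HUA against CTL (log2 change 4.70, SE 1.23, adjusted p = 0.0174) and fell in XZSW against HUA (adjusted p = 0.00865). With 0 counts in XZSW, it was at least 46.8-fold lower there than in HUA, taking a floor of 3 counts for the summed group. Its levels in HUA were 0.0248 to 0.113, near the detection limit. Without CTL2 the CTL group is at 0 and the fitted change has no fixed size. With a term for library kind the rise just missed the threshold (adjusted p = 0.0505).

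Col6a6, a chain of the beaded filament collagen VI, and Col19a1, a fibril-associated collagen, fell in HUA. Col6a6 read 3.34, 7.12, 3.17 and 3.16 in XZSW, 1.81, 1.97, 0.193 and 0.372 in HUA and 4.25, 2.83, 6.78 and 3.22 in CTL. All HUA libraries were below all others. It fell by 1.99 on the log2 scale in HUA against CTL (SE 0.61, adjusted p = 0.026). It rose by 1.91 in XZSW against HUA (SE 0.61, adjusted p = 0.0492).

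The Col6a6 calls were close to the threshold. That in HUA against CTL did not pass without CTL1 (adjusted p = 0.0514), CTL3 (0.0767) or HUA4 (0.0627), nor with a term for library kind (log2 change -1.42, adjusted p = 0.185). That in XZSW against HUA passed without HUA1 or HUA2 and did not pass without any one of the other 10 libraries, with log2 changes of 1.53 to 2.02 and adjusted p of 0.0579 to 0.138. Col19a1 had 28, 43, 8 and 34 counts in XZSW, 13, 7, 0 and 0 in HUA and 59, 29, 30 and 42 in CTL, so that all HUA libraries were below all CTL libraries. It fell in HUA against CTL by 3.48 on the log2 scale (SE 1, adjusted p = 0.0197), which did not pass without CTL1 (adjusted p = 0.0537) or with a term for library kind (log2 change -2.8, adjusted p = 0.094). Without HUA1 the log2 change was -4.41 (adjusted p = 0.0114). In XZSW against HUA its log2 change was 2.69 (SE 0.98, adjusted p = 0.0809).

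**Figure D5:**
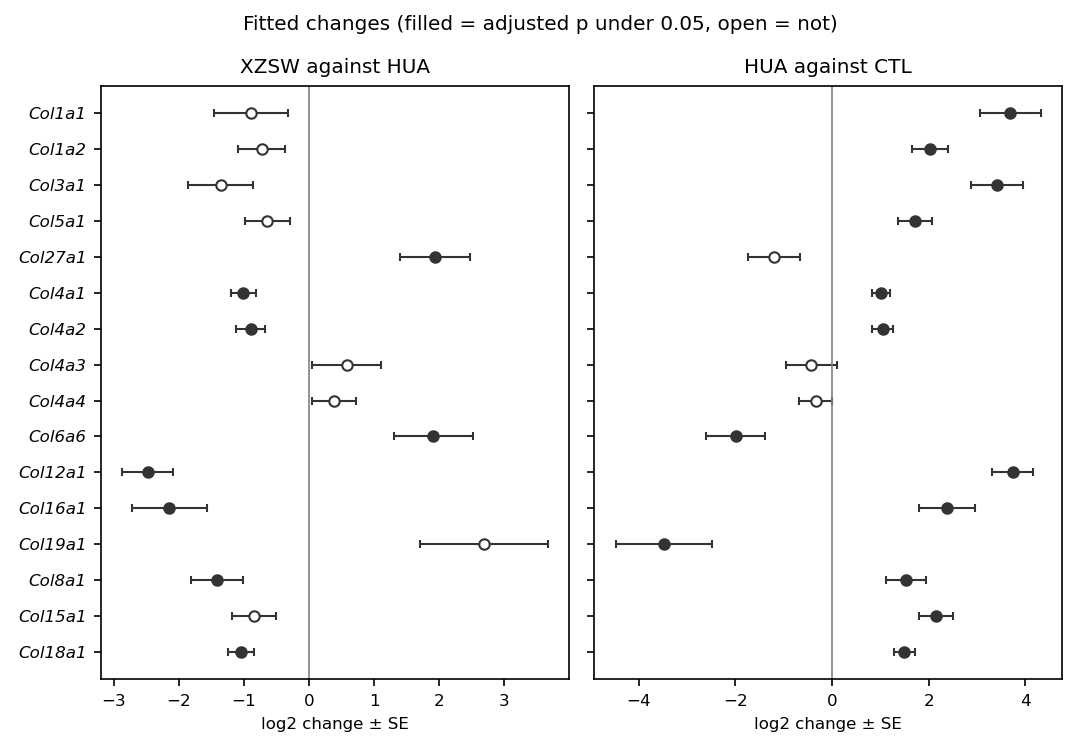
Fitted log2 changes with their SE (horizontal axes) of the 16 named collagen genes other than Col17a1, in XZSW against HUA on the left and in HUA against CTL on the right. Filled points passed the adjusted p of 0.05. Genes of type I, III and V collagen are filled on the right and open on the left, whereas Col4a1, Col4a2, Col12a1, Col16a1, Col8a1 and Col18a1 are filled on both sides.

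The common chains of collagen VI, which surrounds cells as microfibrils, were not called. Col6a1 averaged 2.53 ± 1.46 in XZSW, 2.82 ± 0.995 in HUA and 1.71 ± 0.718 in CTL, and Col6a2 and Col6a3 were lower. The other tested collagens without a call were Col7a1, which anchors epithelium to the stroma, the fibril-associated Col9a3, Col14a1 and Col20a1, the network chain Col8a2, the membrane collagens Col13a1, Col23a1 and Col25a1, and Col26a1 and Col28a1. Including Col4a5, the 20 tested genes without values for each library reached at most 6.80. Not tested for want of counts were Col2a1, Col6a4, Col6a5, Col9a1, Col9a2, Col10a1 and Col22a1, with 1 to 81 counts over all 12 libraries. Values of Col20a1 and Col25a1 are uncertain, since genes overlapping them on the same strand had 54.1% and 21.9% as many counts, and so are those of Col10a1, which lies across the far more abundant Nt5dc1.

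The comparison of XZSW with CTL asks whether treated model kidneys differed from controls. Col1a1, Col3a1 and Col15a1 rose, 8.11% of 37, where 4.99% of all tested genes were called, 2.72% upward and 2.27% downward. No collagen fell with edgeR or with DESeq2, and none was lower at an unadjusted p under 0.05. The median log2 change was 0.17 over the collagens and 0.04 over all tested genes. Col1a1 rose by 2.80 (SE 0.61, adjusted p = 0.0249), Col3a1 by 2.07 (SE 0.51, adjusted p = 0.0394) and Col15a1 by 1.32 on the log2 scale (SE 0.34, adjusted p = 0.0456). In each of the 3 genes the lowest XZSW library, XZSW2, lay within the range of CTL.

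These 3 calls rested on few libraries. None passed without XZSW3 (adjusted p = 0.0601 for Col1a1, 0.099 for Col3a1 and 0.115 for Col15a1), and none passed without any one of the CTL libraries, with adjusted p of 0.0643 to 0.0777 for Col1a1, 0.0873 to 0.106 for Col3a1 and 0.0723 to 0.128 for Col15a1. Without XZSW4 the Col1a1 change was 1.85 and just passed (adjusted p = 0.0486), while Col3a1 (adjusted p = 0.0956) and Col15a1 (0.102) did not pass, and Col15a1 did not pass without XZSW1 (0.0892) or HUA2 (0.0537). With a term for library kind the log2 changes were 1.83, 1.2 and 0.91, with adjusted p of 0.0812, 0.156 and 0.11. Without XZSW2, 5 collagens rose.

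Of the genes whose products modify, transport, cut and cross-link collagen, 32 were in the table and 31 were tested. In HUA against CTL 11 rose and 6 fell, beside 14.9% and 12.8% of all tested genes. That split depended on the scaling: with library-total scaling 15 rose and 2 fell, and with limma on log2(FPKM + 1) 14 rose and 1 fell. Library-total scaling also moved the calls over all tested genes, to 5779 rising and 1320 falling. The comparison of XZSW with HUA gave 1 that rose and 5 that fell, beside 7.09% and 8.34% of all tested genes. The median log2 change was 0.26 in HUA against CTL and -0.17 in XZSW against HUA. Lox and Loxl2, lysyl oxidases that start the cross-links of fibrils, and Bmp1, the proteinase that cuts the end from procollagens, rose in HUA and fell in XZSW against HUA. Loxl2 read 1.03, 1.11, 1.41 and 1.07 in XZSW, 2.69, 1.60, 4.18 and 1.96 in HUA and 0.568, 0.497, 0.525 and 0.66 in CTL, with no overlap between any of the groups. Its log2 change was 2.19 in HUA against CTL (SE 0.27, adjusted p = 0.000159) and -1.22 in XZSW against HUA (SE 0.26, adjusted p = 0.00901).

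Bmp1 averaged 1.21 ± 0.363 in XZSW, 2.93 ± 1.26 in HUA and 0.601 ± 0.0732 in CTL, with log2 changes of 2.26 in HUA against CTL (SE 0.31, adjusted p = 0.000299) and -1.32 in XZSW against HUA (SE 0.30, adjusted p = 0.0114). Lox averaged 0.528 ± 0.155 in XZSW, 1.71 ± 1.16 in HUA and 0.193 ± 0.0869 in CTL, with log2 changes of 3.10 (SE 0.48, adjusted p = 0.000673) and -1.74 (SE 0.46, adjusted p = 0.0224) in the same comparisons. The other genes that rose in HUA against CTL, named here after their values were seen, were Loxl1, Adamts2, Pcolce, Plod3, Pxdn, Loxl3, Fkbp10 and Colgalt1, with log2 changes of 0.42 to 2.63. With a term for library kind Loxl1, Adamts2 and Pxdn still passed. Pcolce, Plod3, Loxl3, Fkbp10 and Colgalt1 did not (adjusted p of 0.0613 to 0.604), and the log2 change of Fkbp10 went from 1.23 to 0.26. The 6 that fell were Tmem38b, Colgalt2, P4hb, P4ha1, Plod1 and Mia3, of which Tmem38b and Colgalt2 still passed with library-total scaling. Tmem38b, an ion channel of the endoplasmic reticulum needed for collagen modification, averaged 8.56 ± 0.475 in XZSW, 7.32 ± 0.929 in HUA and 11.3 ± 0.666 in CTL, and fell by 0.65 in HUA against CTL (SE 0.11, adjusted p = 0.00132). With library-total scaling the log2 change was -0.32 (adjusted p = 0.0417), and with limma on log2(FPKM + 1) it did not pass (adjusted p = 0.0536). Colgalt2, which adds galactose to hydroxylysine, averaged 1.94 ± 0.484 in XZSW, 0.747 ± 0.285 in HUA and 1.97 ± 0.155 in CTL. In XZSW against HUA it rose by 1.33 (SE 0.27, adjusted p = 0.00717), and in HUA against CTL it fell by 1.42 (SE 0.27, adjusted p = 0.00218). In XZSW against CTL 1 of these genes, the lysyl oxidase gene Loxl3, rose (log2 change 1.63, SE 0.35, adjusted p = 0.0231). Another 1, Tmem38b, fell (log2 change -0.47, SE 0.11, adjusted p = 0.0354). Of all tested genes 2.72% rose and 2.27% fell in that comparison. With library-total scaling 3 of the processing genes rose and 0 fell, and over all tested genes 1221 rose and 224 fell. Loxl3 was singled out after its values were seen.

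Of 9 tested collagen receptor genes, 3 rose in HUA against CTL, 33.3% beside 14.9% of all tested genes called upward. In XZSW against HUA 2 fell, 22.2% beside 8.34% called downward. In either direction 27.8% and 15.4% of all tested genes were called in these comparisons. With 9 genes these shares rest on few calls, and they are not read as a trait of the receptors. Ddr1, a receptor kinase that collagen activates, read 23.2, 25.1, 30 and 28.7 in XZSW, 34.8, 39, 55.8 and 54.8 in HUA and 22.9, 20.9, 19.3 and 19.9 in CTL, with no overlap between the groups. It rose by 1.13 in HUA against CTL (SE 0.17, adjusted p = 0.000565) and fell by 0.84 in XZSW against HUA (SE 0.17, adjusted p = 0.00712). Itgb1, the beta chain shared by the collagen-binding integrins, averaged 39.6 ± 6.46 in XZSW, 76.4 ± 18.2 in HUA and 46.6 ± 3.56 in CTL. Its log2 change was 0.70 in HUA against CTL (SE 0.17, adjusted p = 0.00989) and -1 in XZSW against HUA (SE 0.18, adjusted p = 0.00333). Mrc2, an uptake receptor for collagen fragments, rose in HUA against CTL (log2 change 1.27, SE 0.34, adjusted p = 0.0128), which did not pass with a term for library kind (adjusted p = 0.149). In XZSW against CTL 0 of 9 receptor genes passed with edgeR, where 4.99% of all tested genes were called. With DESeq2 1 receptor gene passed, and 4 were higher at an unadjusted p under 0.05. The share of all tested genes at that unadjusted p is not given here, so the 4 are not read as a trait of the receptors.

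Markers of the cells that make collagen did not all move with it. Beside the marker counts below, 14.9% of all tested genes were called upward and 12.8% downward in HUA against CTL. In XZSW against HUA these shares were 7.09% and 8.34%. Of 6 fibroblast markers 1 rose in HUA against CTL, Mfap5, which is 16.7% and near the share of all tested genes. All 6 log2 changes were positive, with a median of 0.84, and 3 were higher at an unadjusted p under 0.05. The share of all tested genes at that unadjusted p is not given here, so the 3 are not read as a trait of fibroblasts. The summed level of the 6 was 4.14 to 15.6 in XZSW, 3.36 to 10.7 in HUA and 4.31 to 5.87 in CTL. It was highest in XZSW3 and XZSW4, which were also the XZSW libraries with the most Col1a1. In HUA1 to HUA4 the fibroblast sums were 4.98, 10.1, 10.7 and 3.36, beside Col1a1 at 8.19, 6.11, 8.94 and 7.96. Of 7 pericyte and smooth muscle markers 3 rose in HUA against CTL and 1 fell, and in XZSW against HUA 1 rose and 2 fell. Acta2 and Tagln, contractile genes that activated fibroblasts also express, rose in HUA against CTL and fell in XZSW against HUA. Rgs5, a pericyte marker, went the other way, falling by 0.84 on the log2 scale in HUA against CTL (adjusted p = 0.0243) and rising by 0.84 in XZSW against HUA (adjusted p = 0.0374). Myh11 and Notch3 were not called, with log2 changes of -0.36 and -0.17 in HUA against CTL and of 0.62 and 0.39 in XZSW against HUA. The summed level of the 7 was 18.8 to 35.7 in XZSW, 51.7 to 195 in HUA and 22.3 to 30.9 in CTL. Most of the HUA sum came from Acta2, which averaged 33.9, and Tagln, which averaged 44.9, of a mean sum of 92.9, while Rgs5 averaged 8.82 in XZSW, 4.76 in HUA and 8.36 in CTL. Macrophage markers, 4 of 6 of which rose in HUA against CTL, summed to 108 and 114 in XZSW3 and XZSW4 and to 42.6 and 43.7 in XZSW1 and XZSW2. In HUA1 to HUA4 they summed to 139.6, 148.3, 157.3 and 47.17, and in CTL to 24.8 to 48.5, so HUA4 lay within the CTL range.

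Of 6 endothelial markers 1 fell in HUA against CTL, 16.7% beside 12.8% of all tested genes. Their sum was 21.6 to 36.5 in XZSW, 9.97 to 27.6 in HUA and 18.2 to 23.4 in CTL. Of 5 proximal tubule markers 4 fell in HUA against CTL, 80% beside the same 12.8%. In XZSW against HUA 4 of them rose, 80% beside 7.09% of all tested genes. Adipocyte markers summed to 97.6 in XZSW1 and to 5.69 to 19.3 in the other 11 libraries, and skeletal muscle markers stayed at 0.542 to 1.32. The part of these cells in the collagen values was not tested.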

How the data were processed

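RNA was taken from kidney with TRIzol, samples had an RNA integrity number over 7 and libraries were strand-specific, per the labels' protocols. The submitters' processing notes name cutadapt 1.9, a read trimmer, HISAT2 2.2.1, an aligner, and the build GRCm38. How reads were counted, with which strand setting and annotation, is not given in the sources used here. Deposited by the authors were a raw count per gene and library, and beside it an FPKM value, per the file headers. Columns are lettered C, N and M, and the sample descriptions tie these letters to CTL, HUA and XZSW. N and M are not initials of HUA and XZSW, so the match rests on those descriptions.

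Counts of genes kept by filterByExpr were scaled by TMM and tested over all 12 libraries with edgeR's quasi-likelihood F-test (edgeR 4.0.16, R 4.3.3), adjusted by Benjamini-Hochberg over 19772 genes. A gene was called at an adjusted p under 0.05. Rose, fell and changed are used for called genes. Standard errors come from the F statistic. Levels are FPKM divided by the TMM factor, so their fold differs slightly from the fitted one. Members and lists were chosen with earlier results of these data known. Collagen genes called in any comparison, or averaging 5 FPKM or more in a group, were named with values of each library. Of the processing and receptor genes, the called ones with the 4 smallest p in HUA against CTL and in XZSW against HUA were named, for each list and each of these comparisons. Library kind was set by a GC slope against CTL, over 14635 genes, of more than 0.15 log2 units per 10% GC. Counts of replicates differed by far more than counting error, at 23.9 to 414 in chi-square over degrees of freedom, so no library was counted as a repeat of another. The edgeR script was tested on simulated data. Alternatives were DESeq2 1.42.0, limma 3.58.1 on FPKM, library-total scaling, no low-count filter, fits on 8 libraries, a replicate block, a library kind term and leaving out each library. Sequences and gene properties were taken with Python 3.11.15, pandas 2.3.3 and numpy 2.4.6, and figures drawn with matplotlib 3.10.9.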

Additional observations from a re-analysis of the deposited data

Results flagged for a closer look

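In 51 sets of 4 levels, each a named collagen gene in 1 group, 5 had a library far from the other 3 by Dixon's ratio (above 0.829); chance gives about 1 in 20. Col4a2 was 53 in HUA3, where the other HUA libraries had 24.3 to 27.1. Col4a3 was 38.4 in HUA1, with 4.80 to 9.45 in the others, and Col4a4 was 29.3 in the same library, with 7.88 to 10.9 in the others. Col6a6 was 7.12 in XZSW2, with 3.16 to 3.34 in the other XZSW libraries. Col17a1 was 0.0112 in CTL2 and 0 in the other CTL libraries.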

How the results depend on the processing

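In HUA against CTL the count of called collagens was 14 with edgeR, DESeq2, library-total scaling, no low-count filter and limma on FPKM, with the same 14 genes each time, and 10 with a term for library kind. Library-total scaling moved the median log2 change of all genes by 0.33 in HUA against CTL, by -0.17 in XZSW against HUA and by 0.16 in XZSW against CTL. Over all genes it gave 5779 rising and 1320 falling in HUA against CTL (2950 and 2538 with TMM), 836 and 2714 in XZSW against HUA (1402 and 1649), and 1221 and 224 in XZSW against CTL (538 and 449). In XZSW against HUA the 9 called collagens became 4 when only the 8 libraries compared were fitted. In XZSW against CTL the 3 called collagens became 6 with DESeq2, 5 with library-total scaling, 1 without a low-count filter, 7 with only the 8 libraries, and 0 with a term for library kind or with limma on log2(FPKM + 1). DESeq2 also called more of all genes in that comparison, 1408 rising and 1009 falling (538 and 449 with edgeR). In HUA against CTL it called 3553 rising and 2939 falling (2950 and 2538 with edgeR). Of the processing genes, 17 were called in HUA against CTL (11 rising, 6 falling), 17 with library-total scaling (15 and 2, 13 of them among the first 17), 15 with limma on log2(FPKM + 1) (14 and 1) and 10 with a term for library kind, and the 2 called in XZSW against CTL became 6 with DESeq2 or with the 8 libraries and 1 without a low-count filter. Of the receptor genes, the 3 called in HUA against CTL became 5 with DESeq2 or library-total scaling, and the 0 called in XZSW against CTL became 1 with DESeq2 or with a term for library kind. The log2 changes of Col4a3 and Col4a4 in HUA against CTL turned to 0.44 and 0.27 with that term. Without the TMM factor the mean sums in CTL were 69.3 for type IV and 24.3 for other collagens. The cause of these shifts was not tested.

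Leaving out each library gave 12 to 18 called collagens in HUA against CTL, 5 to 12 in XZSW against HUA (5 without HUA3 or XZSW2) and 0 to 5 in XZSW against CTL. The called processing genes were 11 to 19, 3 to 7 and 0 to 5 in these comparisons, and the called receptor genes 3 to 5, 2 to 3 and 0. The processing genes were 11 in HUA against CTL without CTL3 or HUA4, 3 in XZSW against HUA without HUA3, XZSW2 or XZSW4, and 0 in XZSW against CTL without any one CTL library, XZSW3 or XZSW4 (5 without HUA3, 4 without HUA1, 1 without XZSW1). The receptor genes were 5 in HUA against CTL without CTL2 or HUA4. The replicate numbers did not pair the libraries: correlations of same-numbered libraries' deviations from their group means were -0.0457 to 0.174. With the number as a replicate block 15 collagens were called in HUA against CTL, 9 in XZSW against HUA and 0 in XZSW against CTL. At 51643999 counts or more per library, genes with counts like those of Col17a1 and Col19a1 are the ones that depth limits.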
